A study of Mus musculus with 6 samples.

Results

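P4-type lipid flippases are ATP-driven membrane pumps that move phospholipids from the outer or lumenal leaflet of a membrane to its cytosolic leaflet. The genes described here are the 5 members Atp10a, Atp8a1, Atp9a, Atp11a and Atp11b, chosen by symbol in the deposited table. All 5 were found among its 10989 genes, and each had at least 50 estimated counts in all 6 libraries, the smallest value being 124.5. The study compared RNA of cells sorted from mouse brain as endothelial (the Positive fraction, 3 libraries) with RNA of the brain cell suspension before the sort (Input, 3 libraries). Replicate numbers 1222, 1223 and 1227 occur in both fractions. All mice carried Tie2-cre and the NuTRAP reporter, the titles of all 6 libraries add the genotype label WT, and no treatment or age is given in the sources used here. Tie2-cre expresses Cre recombinase from the promoter of Tek, which is active in endothelium and in part of the blood lineage. NuTRAP marks cells with Cre activity by EGFP on ribosomes. The sort kept cells that were positive for EGFP and for CD31 and negative for CD11b, so the comparison asks which transcripts these cells held more or less of than the mixture they came from, which itself contains endothelial cells.

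By keeping phosphatidylserine and phosphatidylethanolamine on the cytosolic side, flippases maintain membrane asymmetry, which platelets, clotting factors and phagocytes read at the vessel wall. They also bend membranes during vesicle budding at the Golgi and endosomes. Most P4-ATPases leave the endoplasmic reticulum only with a CDC50 subunit (Tmem30 genes), while human ATP9A and ATP9B do so without it. Scramblases undo the asymmetry by moving lipids both ways without ATP.

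Among the 5 flippases Atp10a was 5.75-fold and Atp11b 2.43-fold higher in Positive, and Atp9a was 8.86-fold lower. Atp8a1 and Atp11a did not pass the test (edgeR's quasi-likelihood test, Benjamini-Hochberg adjusted p below 0.05 over all 10989 genes). Of the 5 genes 2 were higher and 1 was lower, that is 3 called, and 55.5% of all tested genes were called (26.1% higher, 29.4% lower). With scaling to library size alone 4 of the 5 were called, Atp8a1 as lower, and 53.1% of all genes (19.7% higher, 33.4% lower). Both counts are of 5 genes and do not set the group apart, so the results are those of each gene. In 4 of the 5 (all but Atp11a) the 3 Positive libraries did not overlap the 3 Input libraries, as in 64.4% of all genes.

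The windows around the transcription starts of the 3 called flippases are printed because they belong to the genes that rose or fell. Each holds 300 bases, 250 before and 50 after a RefSeq start (build GRCm38.p6, the assembly also called mm10), read 5′ to 3′ on the gene's strand. Capitals mark the GC box GGGCGG or its reverse complement CCGCCC, the core of Sp-type factor sites.
Atp10a, chr7:58657952-58658251, plus strand: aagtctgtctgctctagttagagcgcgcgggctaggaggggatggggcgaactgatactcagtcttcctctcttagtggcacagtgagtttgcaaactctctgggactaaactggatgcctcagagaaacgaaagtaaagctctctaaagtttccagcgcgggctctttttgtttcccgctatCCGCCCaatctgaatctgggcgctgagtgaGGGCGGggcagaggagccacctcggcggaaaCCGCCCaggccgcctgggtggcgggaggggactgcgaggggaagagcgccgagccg
Atp11b, chr3:35753813-35754112, plus strand: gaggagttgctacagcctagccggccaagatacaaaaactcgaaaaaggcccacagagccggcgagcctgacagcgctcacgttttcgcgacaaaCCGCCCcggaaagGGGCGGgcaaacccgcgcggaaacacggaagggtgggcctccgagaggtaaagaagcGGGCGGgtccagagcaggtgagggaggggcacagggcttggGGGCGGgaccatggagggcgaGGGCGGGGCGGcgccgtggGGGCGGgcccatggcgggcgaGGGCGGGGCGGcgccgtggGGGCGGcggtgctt
Atp9a, chr2:168741751-168742050, minus strand: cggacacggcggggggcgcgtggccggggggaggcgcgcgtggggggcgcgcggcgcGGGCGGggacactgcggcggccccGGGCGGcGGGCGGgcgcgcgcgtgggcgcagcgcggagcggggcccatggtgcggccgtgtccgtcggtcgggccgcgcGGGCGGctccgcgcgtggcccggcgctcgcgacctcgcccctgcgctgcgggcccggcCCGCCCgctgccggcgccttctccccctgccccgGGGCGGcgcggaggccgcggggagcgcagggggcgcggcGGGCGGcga
The Atp10a window was the least GC-rich of the 5 members' windows, with 59.3% G or C and 3 GC box matches. The Atp9a window had 88.7% and 7 matches, and the Atp11b window had 70.7% and 10 matches. Those of Atp8a1 and Atp11a had 70.3% and 76.0%, with 4 matches each. A GC box was found in 35.7% of all 32851 windows of this length in the RefSeq table, whose median was 52.7% G or C. All 5 members' windows held a GC box and lay above that median, but unequally. By share of G or C, the Atp10a window stood at percentile 68.9 of all windows. Those of Atp8a1, Atp11b and Atp11a stood at 90.9, 91.8 and 96.9, and that of Atp9a was higher still. Atp9a has 4 windows in the RefSeq table, and only the window at its annotated gene start is described. The letters CCAAT, on either strand, were found in the Atp10a window alone (37.4% of all windows), CCGGAA, the core of ETS-type factor sites, in the Atp11b window alone (14.9%), and TATAAA in none of the 5 (13.6%). Matches describe letters, not binding.

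Atp10a (Entrez 11982, chromosome 7, 58658202 to 58829426, plus strand, mm10) encodes a flippase that in human cells moves phosphatidylcholine at the plasma membrane. Its level in Positive 1222, 1223 and 1227 was 385, 229.7 and 298 CPM (counts scaled to a common library size), and its level in Input was 61.7, 53.9 and 43.5 CPM. All Positive libraries lay far above all Input libraries, with Positive 1222 the highest and Positive 1223 the lowest of the sorted ones. The log2 fold change was 2.52 ± 0.22 (SE, 3 libraries each; 95% interval 2.02 to 3.03; edgeR adjusted p = 2.42e-05). It ranked 228 from the top of all 10989 genes by log2 fold change. Within a replicate number the log2 difference was 2.64, 2.09 and 2.78, so the rise was present in all 3 pairs and smallest in 1223.

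Atp11b (Entrez 76295, chromosome 3, 35754138 to 35856276, plus strand) belongs to the ATP11 group of flippases for phosphatidylserine and phosphatidylethanolamine, and its human protein is found on endosomes and the Golgi. It stood at 108, 83.15 and 85.5 CPM in Positive 1222, 1223 and 1227, and at 45.2, 33.4 and 34.8 CPM in Input. The fractions did not overlap, and replicate 1222 was the highest in both. Its log2 fold change was 1.28 ± 0.18 (95% interval 0.88 to 1.68; adjusted p = 0.000313), and the 3 differences within a number, 1.26, 1.32 and 1.30, were nearly equal.

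Atp11a (Entrez 50770, chromosome 8, 12757016 to 12868728, plus strand), whose human protein is a plasma membrane flippase of phosphatidylserine, had 169.9, 142 and 136 CPM in Positive and 156, 115.5 and 113 CPM in Input. The fractions overlapped, since Input 1222 lay above Positive 1223 and 1227. The log2 fold change of 0.22 ± 0.17 did not pass (95% interval -0.16 to 0.60; adjusted p = 0.288), although Positive was above Input in each of the 3 numbers, by log2 0.13, 0.30 and 0.27. The interval allows a fold between these limits and does not show an equal level.

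Atp8a1 (Entrez 11980, chromosome 5, 67618141 to 67847431, minus strand) encodes an aminophospholipid flippase of the Golgi, endosomes and plasma membrane. It had 218, 178 and 179 CPM in the Positive libraries and 225, 287 and 223 CPM in the Input libraries. The Positive libraries all lay below the Input libraries, but Positive 1222 and Input 1222 differed by only log2 -0.05, against -0.69 in 1223 and -0.31 in 1227. With TMM scaling, which adjusts library sizes for composition, the log2 fold change of -0.35 ± 0.15 did not pass (95% interval -0.70 to -0.01; unadjusted p = 0.0474, edgeR adjusted p = 0.0789). Scaled to library size alone it did pass, at log2 -0.51 (adjusted p = 0.0178), and that scaling moved the median of all genes to log2 -0.13, against 0.03 with TMM. Relative to the median of all genes, Atp8a1 stood at log2 -0.38 under both.

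Atp9a (Entrez 11981, chromosome 2, 168634438 to 168741800, minus strand), the mammalian relative of yeast Neo1 and a protein of recycling endosomes, had the largest difference of the 5. It stood at 23.9, 27.7 and 30.0 CPM in the Positive libraries and at 207, 279.9 and 236 CPM in the Input libraries. Every Positive library was several-fold below every Input library, and the spread within a fraction was small beside that gap. The log2 fold change was -3.15 ± 0.17 (95% interval -3.53 to -2.76; adjusted p = 3.18e-06), and the differences within a number were -3.11, -3.34 and -2.98. The lowest depth was in Positive 1223, where 125 counts gave 27.7 CPM with an exact Poisson 95% interval of 23.1 to 33.0 CPM, for counting error only.

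**Figure D1:**
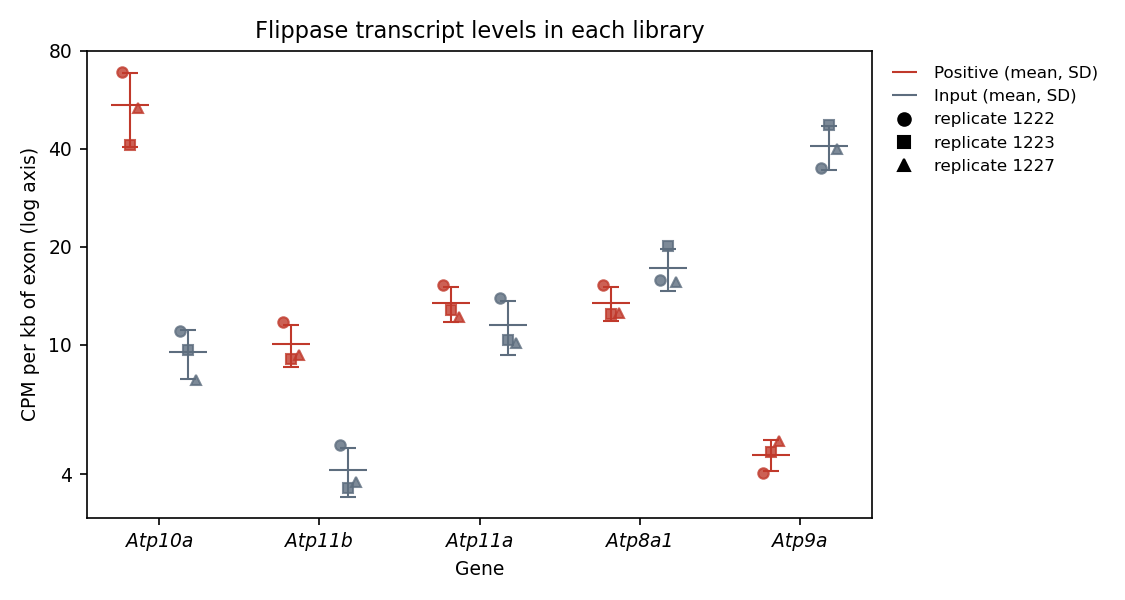
CPM per kilobase of annotated exon (log axis) of the 5 flippases in the 3 Positive libraries (red, left) and the 3 Input libraries (grey, right); symbols are replicate numbers, long bars the mean and whiskers the SD. Atp10a averaged 54.5 in Positive and 9.50 in Input, while Atp9a averaged 4.60 in Positive and 40.7 in Input.

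To compare levels between genes, CPM was divided by the length of the annotated exons of each gene, which ran from 5.59 kb (Atp10a) to 14.28 kb (Atp8a1). On this scale Atp10a was highest in Positive (54.5 ± 13.9 CPM per kb, SD, n = 3). Atp8a1 (13.4 ± 1.59) and Atp11a (13.4 ± 1.62) came next with overlapping libraries, followed by Atp11b (10.1 ± 1.49) and, well below, Atp9a (4.60 ± 0.52). In Input the order was Atp9a (40.7 ± 6.20), Atp8a1 (17.2 ± 2.55), Atp11a (11.5 ± 2.15), Atp10a (9.50 ± 1.64) and Atp11b (4.12 ± 0.70). In Input, Atp11a and Atp10a were the one pair of neighbours in that order whose libraries overlapped. With the longest coding transcript of each gene as its length, both orders were the same, and the overlapping neighbours were then Atp8a1 with Atp11a and Atp11a with Atp11b in Positive, and Atp10a with Atp11b in Input.

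The log2 ratio of 2 genes within a library was taken for the 10 pairs of the 5 genes, which share their genes and libraries. It did not overlap between Positive and Input in 10 of 10 pairs, and in 67.9% of all pairs of the 10970 genes above 0 in every library. Each of the 10 had an exact two-sided permutation p of 0.1 (adjusted p = 0.1), the smallest that 3 against 3 libraries can give, so none could pass. The ratio of Atp10a to Atp9a was log2 4.09, 3.13 and 3.40 in Positive 1222, 1223 and 1227, and -1.66, -2.29 and -2.36 in Input. The ratio of the close relatives Atp11a and Atp11b was log2 0.37, 0.49 and 0.39 in Positive and 1.50, 1.51 and 1.41 in Input. That ratio was steady within a fraction, with an SD of 0.07 and 0.05, while its means differed by log2 -1.06.

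Summed over the 5 flippases and 5 further P4-ATPases described here, the transcripts came to 148, 100.1 and 119.7 CPM per kb in Positive 1222, 1223 and 1227, and to 97.4, 102.5 and 91.7 CPM per kb in Input. Positive 1223 lay below Input 1223, and the difference did not pass (exact two-sided permutation p = 0.2; 3 against 3 libraries cannot go below 0.1). Atp10a made up 46.6%, 41.1% and 44.6% of this sum in Positive, against 11.3%, 9.4% and 8.5% in Input. Atp9a made up 2.7%, 4.7% and 4.2% in Positive, against 35.9%, 46.2% and 43.6% in Input. Of these 10 genes the most abundant transcript per length was Atp10a in each sorted library and Atp9a in each suspension library. Atp11b held 8.3% ± 0.68 in Positive and 4.2% ± 0.76 in Input (SD, n = 3). Atp8a1 held 11.1% ± 1.17 in Positive and 17.6% ± 1.79 in Input, and Atp11a 11.1% ± 1.45 in Positive and 11.8% ± 2.22 in Input. With the longest coding transcript as length, Atp10a held 35.1% ± 3.71 in Positive and 6.6% ± 1.07 in Input.

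**Figure D2:**
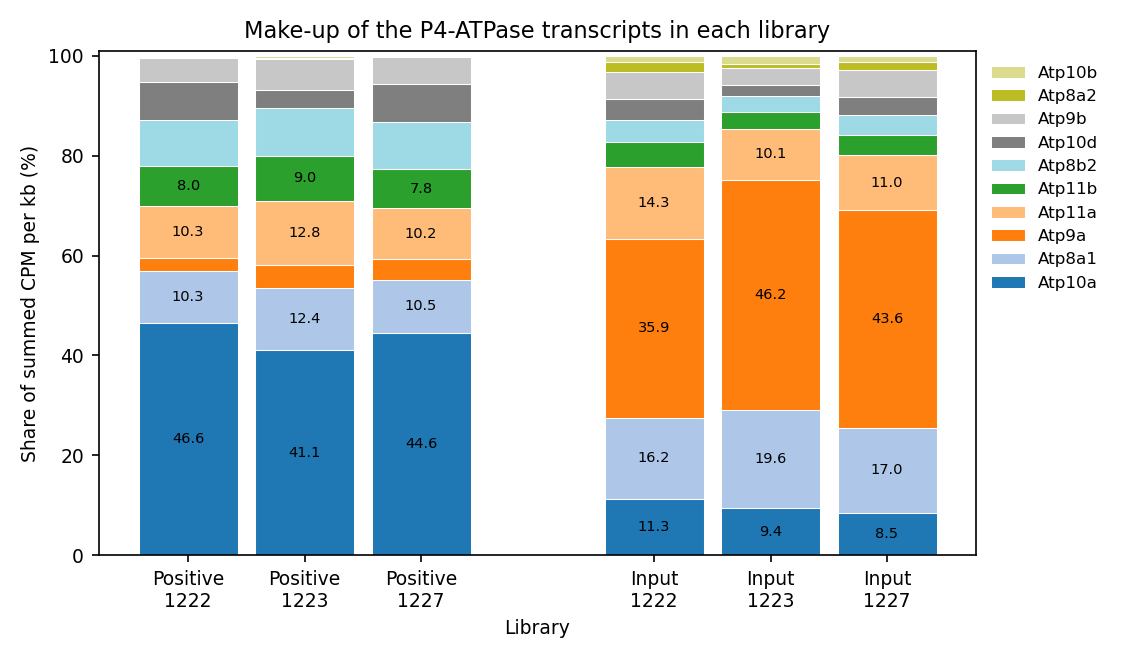
Share of each of 10 P4-ATPase genes in their summed CPM per kilobase of exon (percent, stacked to 100) in the 3 Positive libraries (left) and the 3 Input libraries (right). Atp10a takes 41.1% to 46.6% of each Positive bar and 8.5% to 11.3% of each Input bar, and Atp9a 2.7% to 4.7% of each Positive bar and 35.9% to 46.2% of each Input bar.

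Of 9 other mouse P4-ATPases listed, 5 were analysed here, of which 3 were higher and 2 were lower (2 and 2 with library size alone). Over all genes 55.5% were called (53.1% with library size alone). The log2 fold changes of these 5 ran from -2.91 to 1.63. Their median of 0.52, against 0.03 over all genes, is the value of Atp9b alone. Atp8b2, whose human protein moves phosphatidylcholine, had 117, 82.7 and 97.1 CPM in Positive and 36.2, 28.2 and 31.2 CPM in Input (log2 1.63 ± 0.17; edgeR adjusted p = 7.24e-05). Atp10d, a relative of Atp10a, had 88.2, 27.7 and 71.2 CPM in Positive and 32.8, 17.2 and 25.1 CPM in Input. Positive 1223 fell among the Input libraries, and the rise of log2 1.31 ± 0.40 (adjusted p = 0.0208) did not pass without Positive 1222 (log2 1.0), Positive 1227 (1.22), Input 1223 (1.13) or Input 1227 (1.30), nor with limma on the deposited log2 values (1.28). Atp9b, the closest relative of Atp9a, averaged 79.2 ± 6.47 CPM in Positive and 54.7 ± 11.5 CPM in Input (log2 0.52 ± 0.18; adjusted p = 0.0328). Its call ended without Positive 1222 (log2 0.46), 1223 (0.57) or 1227 (0.55), or Input 1227 (0.59), with scaling to library size alone (0.37), and with limma (0.62). Atp8a2, a flippase of neurons and photoreceptors, averaged 2.87 ± 0.38 CPM in Positive and 20.7 ± 8.15 CPM in Input (log2 -2.88 ± 0.36; adjusted p = 0.000183). Atp10b averaged 2.05 ± 1.68 CPM in Positive and 13.1 ± 2.66 CPM in Input (log2 -2.91 ± 0.55; adjusted p = 0.00202). Atp8a2 and Atp10b did not reach 50 estimated counts in every Positive library and were kept in the table through Input alone. That filter favours a fall, so the p-values of these genes are not independent support for it.

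Genes of 1 subfamily thus differed in direction. In the ATP10 group Atp10a and Atp10d rose and Atp10b, kept through Input alone, fell. In the ATP9 group Atp9a fell and Atp9b rose. Tmem30a, which encodes the CDC50 subunit that most flippases need, was the single tested gene of 3 Tmem30 genes. It had 349.7, 365 and 364 CPM in Positive and 302, 308 and 328 CPM in Input. The fractions did not overlap, but the log2 fold change of 0.20 ± 0.11 did not pass (adjusted p = 0.162). Per length it averaged 63.7 CPM per kb in Positive and 55.4 CPM per kb in Input, above the mean of each of these 10 P4-ATPases in the same fraction.

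**Figure D3:**
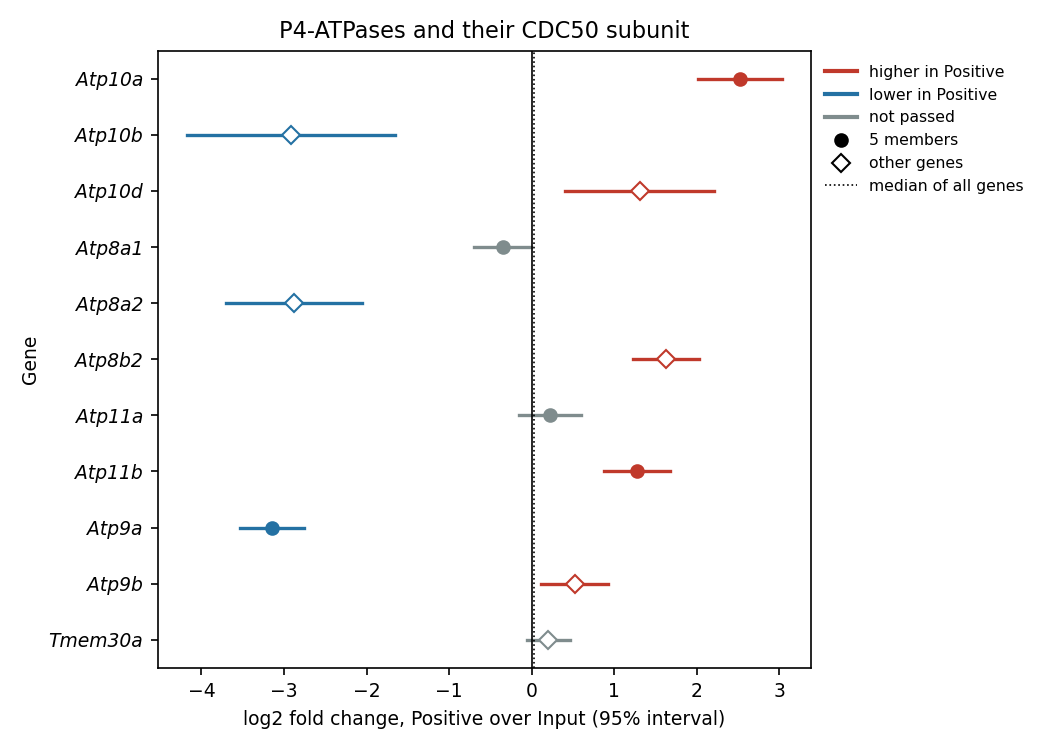
log2 fold change of Positive over Input with its 95% interval for 10 P4-ATPases, grouped by subfamily, and Tmem30a; filled circles are the 5 members, open diamonds the other genes, red passed as higher, blue as lower and grey did not pass. The estimates run from -3.15 (Atp9a) to 2.52 (Atp10a), and ATP10 and ATP9 relatives lie on both sides of 0. Atp8a2 and Atp10b were kept in the table through Input alone, which favours a fall.

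Lists of 77 genes held the other P4-ATPases and Tmem30 genes above and genes that set or read membrane lipid asymmetry. They also held genes whose yeast relatives bind Neo1, and P-type ATPases that mostly pump ions or polyamines. Of these 77 genes 58 were tested: 21 were higher, 22 lower and 15 did not pass, with a median log2 fold change of 0.08. Over all genes 26.1% were higher and 29.4% lower, and the counts of each list are to be read against these shares. With scaling to library size alone 14 were higher and 25 lower, against 19.7% and 33.4% of all genes. The lower genes Tyro3, Abcg4 and Atp13a4, like Atp8a2 and Atp10b, were kept in the table through Input alone. The higher gene Abcb1b was kept through Positive alone. That filter favours the direction each took, so these calls are not independent support for it. Among scramblases 5 of 9 were higher and 2 lower (4 and 2 with library size alone; median 0.68). All 4 tested phospholipid scramblase genes rose, Plscr4 by log2 2.12 ± 0.19 and Plscr1 by 1.56 ± 0.16 (these were picked after their values were seen), and each kept its call in all 15 alternatives. Ano6, the calcium-activated scramblase of platelets, averaged 315 ± 11.3 CPM in Positive and 197 ± 79.7 CPM in Input. Its rise of log2 0.68 ± 0.25 (edgeR adjusted p = 0.0463) did not pass without Positive 1222 (0.66), 1223 (0.71) or 1227 (0.66), or Input 1222 (0.48) or 1227 (0.58), nor with DESeq2's size factors (0.67) or library size alone (0.53). Vmp1 and Tmem41b, scramblases of the endoplasmic reticulum, fell by log2 1.56 ± 0.25 and 0.73 ± 0.16, and Atg9a, a scramblase of autophagic membranes, had log2 -0.16 without passing.

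Of 11 ABC transporters that move lipids, not all of them exporters, 2 were higher and 4 lower (1 and 5 with library size alone; median -0.22). Abcb1a, the drug and lipid pump of the blood-brain barrier, averaged 3501 ± 27.3 CPM in Positive and 484 ± 37.2 CPM in Input, and Abca2, abundant in myelinating cells, averaged 78.4 ± 8.18 CPM in Positive and 786 ± 157 CPM in Input. Abca1, the cholesterol and phospholipid exporter, and Abca3 had log2 0.31 ± 0.26 and 0.32 ± 0.15 without passing, and Abca3 passed without Positive 1223 (0.44). Of 7 genes of phosphatidylserine and phosphatidylethanolamine synthesis 2 were higher and 3 lower (0 and 3 with library size alone; median -0.15). Etnk1 (ethanolamine kinase) and Cept1 (the last step to phosphatidylethanolamine) rose by log2 0.42 ± 0.12 each. Etnk1 did not pass without Positive 1222 (0.35) or Input 1227 (0.43), nor Cept1 without Positive 1227 (0.39) or Input 1222 (0.38), and with library size alone neither passed (0.26 and 0.27). Ptdss1, a phosphatidylserine synthase, and Pisd, the mitochondrial decarboxylase, had log2 0.01 and -0.15 without passing.

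Among 8 bridging proteins and receptors of exposed phosphatidylserine 3 were higher and 5 lower (2 and 5 with library size alone; median -1.0). The lower ones include Tyro3, kept through Input alone. The bridging proteins Pros1 and Gas6 rose by log2 0.97 ± 0.18 and 0.71 ± 0.23, while the call of Gas6 ended without Positive 1222 (0.51), Positive 1227 (0.73) or Input 1223 (0.53), with library size alone (0.55) and with limma (0.79). The bridging protein Mfge8 fell by log2 1.63 ± 0.16. Stab1, a scavenger receptor of endothelium and macrophages, had 1399, 623 and 364 CPM in Positive and 346, 283 and 322 CPM in Input. Positive 1222 was far above the other Positive libraries. The rise of log2 1.33 ± 0.42 (edgeR adjusted p = 0.0253) came to log2 0.69 without both libraries of 1222 and did not pass, and it did not pass without Input 1223 (1.25) or Input 1227 (1.34), nor with limma (1.18). Of the 4 genes whose yeast relatives bind Neo1, 2 were higher and 1 lower (2 and 2 with library size alone; median 0.32). Snx3, a retromer sorting protein, rose by log2 1.31 ± 0.14 and Dopey1 by 0.93 ± 0.24, Dopey2 fell by 0.69 ± 0.16, and Mon2 had log2 -0.28 without passing. Without both libraries of 1223 Dopey1 did not pass (0.90), and without both of 1227 Dopey2 did not (-0.63). Of 13 listed P-type ATPases that mostly pump ions or polyamines 4 were higher and 5 lower (3 and 6 with library size alone; median 0.15). The calcium pump Atp2a3 rose by log2 1.55 ± 0.19 and Atp2a2 fell by 0.46 ± 0.12, which did not pass without both libraries of 1227 (-0.45), nor with limma (-0.39). Atp2b1 had log2 0.42 ± 0.16 without passing, but passed without Positive 1227 (0.57) and with the replicate number as a block (0.39; edgeR adjusted p = 0.0402) and with DESeq2 (0.41). Mon2 also passed with that block (-0.29; edgeR adjusted p = 0.0437) and with library size alone (-0.44). Atp2c1, a Golgi pump, rose by log2 0.31 ± 0.11 but did not pass once any single library was left out, with values from 0.26 to 0.36, nor with library size alone (0.16).

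**Figure D4:**
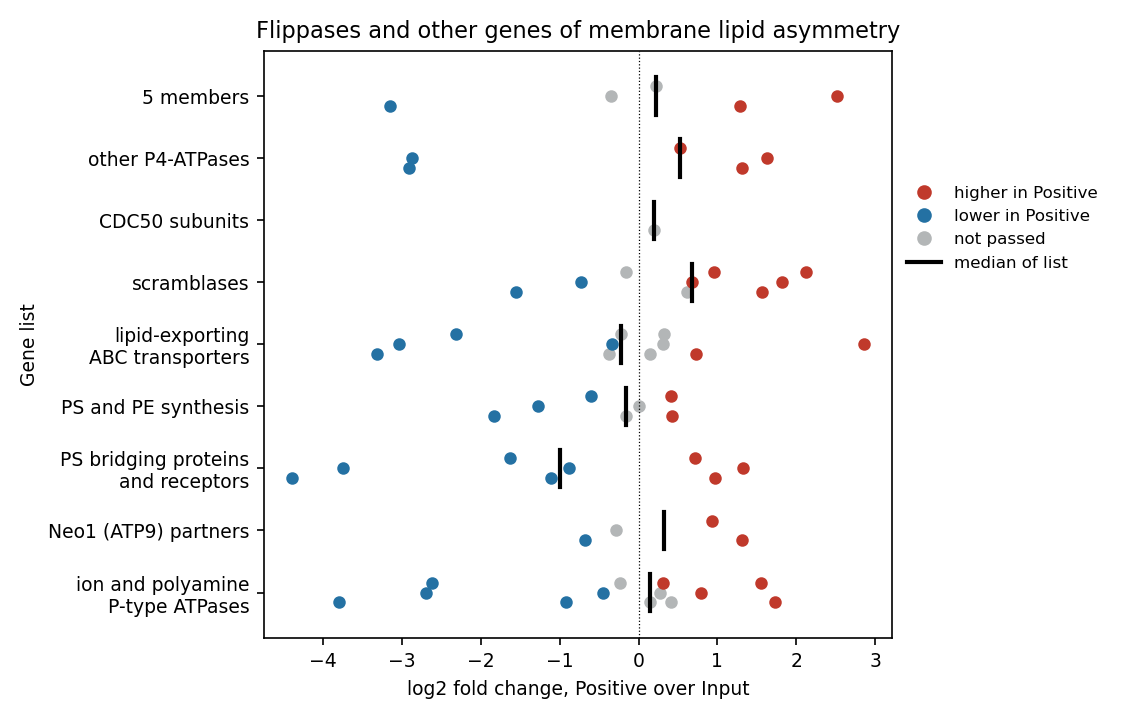
log2 fold change of Positive over Input for each tested gene (points) of the 5 flippases and of 8 lists, of genes of membrane lipid asymmetry and of other P-type ATPases. Red passed as higher, blue as lower, grey did not pass, and the black bar is the list's median. Among the called genes, Tyro3, Abcg4, Atp13a4, Atp8a2 and Atp10b were kept in the table through Input alone, which favours a fall. Abcb1b was kept through Positive alone, which favours a rise. All lists with more than 1 tested gene hold genes on both sides of 0, with list medians from -1.0 (phosphatidylserine bridging proteins and receptors) to 0.68 (scramblases).

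For each flippase the genes with the most similar pattern were those at the smallest Euclidean distance over the 6 libraries, in log2 CPM centred on each gene's mean. Genes with Gm number, Rik or LOC names were left out of this search. The nearest to Atp10a were Gbp9 (distance 0.145), Utrn (0.301) and Rai14 (0.303), with log2 fold changes from 2.36 to 2.48. Nearest to Atp11b were Baz2a (0.104), Maml1 (0.108) and Kank2 (0.119). Nearest to Atp11a were Rabgap1 (0.072), Ankrd52 (0.090) and AI314180 (0.098), and nearest to Atp8a1 were Xpo5 (0.102), Ppp2ca (0.157) and Pde10a (0.189). Atp9a lay nearest to Mt3 (0.170), Slc22a17 (0.232) and Pfn2 (0.260), with log2 fold changes from -3.33 to -3.07. These distances reflect the difference between fractions and the spread of the replicates together, and carry no test.

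Markers of cell types moved with these results. Over all genes 26.1% were higher and 29.4% lower, and the marker counts are to be read against these shares. Pecam1, which encodes CD31, is among the endothelial markers, and Itgam, which encodes CD11b, is among the microglial ones. The sort chose cells on both proteins, so it favoured the direction of both genes. Of 8 endothelial markers 8 rose, with a summed level of 17770 to 19090 CPM in Positive and 2288 to 2993 CPM in Input, in the direction of Atp10a and Atp11b. Of the pericyte markers 5 of 6 rose (1128 to 1799 CPM in Positive and 599 to 711 CPM in Input). Of the perivascular macrophage markers 5 of 6 rose too, unevenly, with summed levels of 2004, 727 and 288 CPM in Positive 1222, 1223 and 1227 and 235 to 311 CPM in Input. Positive 1222 had the highest sum of these markers. With Positive 1222 left out, Atp10a had log2 2.32 (edgeR adjusted p = 3.2e-05) and Atp11b 1.15 (edgeR adjusted p = 0.000783). The sum in Positive 1223 was still above that in Input, so leaving out Positive 1222 does not test what these cells contribute. In the direction of Atp9a, 7 of 7 neuronal markers (45.6 to 69.6 CPM in Positive and 503 to 631 CPM in Input), 6 of 6 oligodendrocyte markers (587 to 1279 CPM in Positive and 17680 to 25340 CPM in Input), 6 of 6 astrocyte markers (440 to 703 CPM in Positive and 4224 to 6494 CPM in Input) and 7 of 7 microglial markers (1089 to 1926 CPM in Positive and 4959 to 9428 CPM in Input) fell. Of 4 oligodendrocyte precursor markers 3 fell and 1 rose (90.7 to 106 CPM in Positive and 166 to 390 CPM in Input), all 5 ependymal and choroid plexus, 4 erythroid and 3 fibroblast markers fell, and of 2 smooth muscle markers 1 fell. The 7 neuronal markers summed to 54.8 CPM in Positive 1223, too few counts for all of them to reach the minimum of the deposited table there. Those below it were kept through Input alone, which favours a fall, so their fall is not independent support. Whether this holds for lower markers of other types is not given here. No marker was at 0 in any library. What these cells contribute to the level of each flippase was not tested, and in such bulk libraries fewer cells of a type and less RNA per cell cannot be told apart.

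The libraries differed in depth, with summed estimated counts of 23525401, 4772866 and 19708830 in Positive 1222, 1223 and 1227 and of 31607627, 4814966 and 52283556 in Input. On mm10 the annotation places exons of Shisa3 and Gm15477 over exons of Atp8a1, and exons of Gm15350 and Gm15347 over exons of Atp11a, all on the opposite strand. Whether counting used the strand is not given in the sources used here, so reads of these genes may enter the levels of Atp8a1 and Atp11a. For Atp10a, Atp9a and Atp11b no exon of another annotated gene overlapped.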

How the data were processed

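RNA was measured in 6 mouse brain libraries, 3 Positive and 3 Input, made from total RNA with a directional library kit per the labels. Per the file headers, the authors kept genes whose raw value reached 50 in all libraries of at least 1 fraction: 8509 genes passed in both, 583 in Positive alone and 1897 in Input alone, which favours a rise or fall of genes kept through 1 fraction. The deposited raw columns are estimated counts, mostly not whole numbers. The deposited log2 normalised values, whose definition is not given in the sources used here, served as an alternative. The submitters' processing notes name mm10 as build and DESeq as a tool. Neither aligner nor counter is named there.

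The estimated counts were rounded and tested with edgeR 4.0.16 in R 4.3.3: TMM scaling (factors from 0.94 to 1.082), filterByExpr with a minimum count of 10 (0 genes removed), and the quasi-likelihood test with fraction as the only term. Adjusted p below 0.05 (Benjamini-Hochberg, 10989 genes) was a call, and the biological coefficient of variation was 21.6%. Levels are CPM on TMM-adjusted library sizes. The SE is the size of the fitted log2 fold change divided by the square root of the F statistic, and 95% intervals use the t distribution. Exon lengths are the union of exons in GENCODE M21 (mm10). The fit was tested on simulated data. Permutation tests used scipy 1.17.1 and, like the main fit, left the replicate numbers out.

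Alternatives were DESeq2 1.42.0, DESeq2-type size factors, library size alone, no filter, limma 3.58.1 on the log2 values, each library and each replicate number left out, and the number as a block. The numbers were taken to pair the libraries, since deviations from the fraction means correlated at 0.45, 0.23 and 0.30 for equal numbers and at most 0.02 otherwise. Deviations from a mean of 3 libraries cancel out for each gene. Positive values at equal numbers therefore push the others down, and the low values are not separate support for the pairing. The main fit left this pairing out, so its SEs and intervals also hold the spread between numbers. No label says that a number is 1 animal, so p-values measure the spread between these libraries.

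The members and gene lists were chosen with earlier results of these data known. Of 77 pathway and 68 marker genes 58 and 64 were matched, by symbol or Entrez identifier; the others were not analysed here. One related gene is not reported here, and list counts and sums leave it out. Named were the members, the other listed P4-ATPases and CDC50 subunits, the 4 genes of highest mean CPM in each other list, and 3 nearest genes per member.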

Additional observations from a re-analysis of the deposited data

How the results depend on the processing

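Over 15 alternatives the log2 fold change of Atp10a ranged from 2.32 to 2.70, of Atp11b from 1.12 to 1.44 and of Atp9a from -3.30 to -3.03, and each kept its call. Atp11a (0.06 to 0.39) did not pass in any. Atp8a1 (-0.52 to -0.18) passed in 1, library size alone (-0.51, adjusted p = 0.0178), where the median of all genes moved by the same amount. With the replicate number as a block, Atp10a had log2 2.52, Atp11b 1.29, Atp9a -3.13, Atp8a1 -0.35 and Atp11a 0.23, and no call of the 5 changed. The SE of Atp11a was then 0.09, against 0.17 in the main fit, and its edgeR adjusted p was 0.0691, against 0.288. Over all genes 6780 were called with this block, against 6097 in the main fit. The 30 other named genes gave 450 values, of which 375 kept direction and side of the threshold, 64 lost the call, 7 gained it and 4 reversed. The reversals were all of Ptdss1: -0.14 with library size alone, and -0.08 to 0.09 over left-out libraries. Without both libraries of 1227, 1741 genes were higher, against 2870 with all libraries. No filter changed nothing, since the table was already filtered. With the longest coding transcript as length (chosen after seeing the data), the share of Atp8a1 was 14.9% in Positive and 20.1% in Input. The smallest count behind a value of the 5 flippases was 125 (Atp9a in Positive 1223).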
